A study of Glycine max with 10 samples.

Results

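Isoflavone synthases and flavonoid hydroxylases are cytochrome P450 enzymes that sit where the flavonoid pathway of soybean (Glycine max) divides. The 4 genes described here are the isoflavone synthase genes IFS1 (Glyma.07G202300.Wm82.a2.v1, chromosome 7) and IFS2 (Glyma.13G173500.Wm82.a2.v1, chromosome 13), the flavonoid 3'-hydroxylase gene of the T locus (F3'H, Glyma.06G202300.Wm82.a2.v1, chromosome 6) and the flavonoid 3',5'-hydroxylase gene of the W1 locus (F3'5'H, Glyma.13G072100.Wm82.a2.v1, chromosome 13). They were chosen by gene name as flavonoid P450 genes, with no threshold on a measured value but with earlier results of these data known, out of the 56044 genes of the deposited count table, and all 4 were found in it. RNA was taken from pods of 10 field-grown soybeans 18 days after flowering and sequenced as paired-end TruSeq libraries, 1 per soybean. By the labels the pods of soybeans 015, 018, 044, 060 and 071 have a high shattering force (high_force) and those of soybeans 038, 055, 072, 092 and 109 a low one (low_force). They name no genotype, treatment or hour of harvest. Nor do they tell if a soybean number stands for 1 plant, for a line or for pooled plants. The p-values therefore reflect only the spread between these samples, which may be technical. How the force was measured is not stated.

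Isoflavone synthase moves the B-ring of a flavanone to another carbon and so opens the branch that leads to daidzein, genistein and the phytoalexins called glyceollins, for which legumes are known. Flavonoid 3'-hydroxylase and flavonoid 3',5'-hydroxylase leave the skeleton as it is and add hydroxyl groups to the B-ring, which sets the colour of the flavonols, anthocyanins and proanthocyanidins made later. In soybean the T locus is known for tawny or gray pubescence and for seed coat colour, and the W1 locus for purple or white flowers. Both isoflavone synthases encode nearly identical proteins, so reads can be shared between them and the division of counts between IFS1 and IFS2 is uncertain. In the RefSeq gene table at hand (assembly Glycine_max_v4.0) the symbol IFS1 is on chromosome 7 and IFS2 on chromosome 13, but each has the name of the other as a synonym, so the IDs above define them here.

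Library totals ran from 3779756 to 13298201 counts. Levels are in CPM, counts divided by library sizes that were scaled with TMM, the trimmed mean of M-values. On that scale low_force 055 had an effective depth of only 0.922 M counts, against 4.35 to 20.1 M counts for the other 9 libraries. Its total of 6528403 counts lay inside the range of the others, so this small size came from the TMM scaling. It had counts for 30465 genes, and the next lowest library, low_force 092, for 37611. Where no read was counted, a true level of up to 3 counts is possible, a limit of 3.26 CPM in low_force 055 and of between 0.149 and 0.689 CPM in the others. Intervals and limits of this kind cover counting error only. The 3 pod wall genes (Pdh1, SHAT1-5 and NST1A, paired with IDs from published work as recalled) summed to 49.3 to 69.0 CPM in high_force and 48.1 to 88.8 CPM in low_force. Within that sum Pdh1 averaged 0.857 CPM in high_force and 10.8 CPM in low_force (adjusted p = 0.796 in edgeR's quasi-likelihood test), with 0 counts in low_force 055. SHAT1-5 averaged 22.9 CPM in both groups, and NST1A 39.9 and 33.8 CPM. The 5 seed reserve genes, paired in the same way, summed to 13262 CPM in low_force 109 and to between 0.796 and 140.8 CPM elsewhere. The 4 LHY genes of the morning clock summed to between 1412 and 2201 CPM in high_force 015, low_force 055 and low_force 072 and to between 21.2 and 30.03 CPM in the other 7 libraries.

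None of the 4 genes passed the test between the force groups. In edgeR's quasi-likelihood test 0 of 30226 tested genes were called higher and 0 lower in high_force at an adjusted p of 0.05 (0% called in either direction), with 1893 genes at unadjusted p under 0.05 (6.26%). Of the other tools, DESeq2 called 25 genes, the edgeR exact test 3 and limma-voom 0, with IFS1, IFS2 and F3'H not among them. F3'5'H could not be among them, since DESeq2 gave it no p and the filter left it out of the other 2 runs. With no filter its adjusted p was 0.974 in the edgeR exact test and 0.794 in limma-voom. IFS1, IFS2 and F3'H had enough counts to be tested, and F3'5'H did not. What the data show is a wide spread between soybeans of the same group, and a balance between the isoflavone and the hydroxylase branch that differs from soybean to soybean within both groups. Pods were sequenced in bulk, so fewer cells of a type and less RNA per cell cannot be told apart.

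IFS2 supplied most of the isoflavone synthase counts in 9 of 10 libraries. It stood at 42.2, 6.37, 44.5, 5.26 and 18.3 CPM in high_force 015, 018, 044, 060 and 071, against 76.96, 107.4, 5.52, 24.8 and 47.95 CPM in low_force 038, 055, 072, 092 and 109. High_force 018, high_force 060 and low_force 072 were the low libraries, so the groups overlapped over most of their range. The low values rest on 34, 28 and 24 counts, and the exact 95% Poisson interval of the highest of them, 4.41 to 8.90 CPM in high_force 018, ends below that of the next library, high_force 071 (15.96 to 20.9 CPM). IFS2 averaged 23.3 ± 19.02 CPM in the high_force pods, against 52.5 ± 40.6 CPM in the low_force pods (SD, n = 5 each). The log2 fold change was -1.14 (SE 0.73), with an adjusted p of 0.835 over all genes in edgeR's quasi-likelihood test. In the two-sided exact permutation test, p was 0.270 (0.888 adjusted over all genes tested). Part of the low_force mean comes from low_force 055, the library with the smallest TMM-scaled size: without it the log2 fold change was -0.73. With library size as the only scaling, which moved the median of all genes by 0.55 to 0.54, it was -0.34. Of the 3 libraries with high LHY, low_force 055 was the highest for IFS2 in CPM, low_force 072 among the lowest and high_force 015 in between. The rank of low_force 055 rests on its small TMM-scaled size. It had 99 IFS2 counts in a total of 6528403, against 256 in a total of 5140148 in high_force 015. Within low_force 055, where no scaling enters, IFS2 took 99 of the 117 counts of the 4 genes. At the TMM-scaled size SHAT1-5 and NST1A in low_force 055 were at 17.4 and 31.5 CPM, against low_force means of 22.9 and 33.8 CPM. Which scaling lies nearer to the true level was not tested.

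IFS1 was the less abundant isoflavone synthase by counts in 9 libraries and the more abundant in low_force 092. Its levels were 4.79, 0.562, 2.49, 0.188 and 2.66 CPM in high_force 015, 018, 044, 060 and 071, against 9.75, 2.17, 0.230, 28.6 and 5.04 CPM in low_force 038, 055, 072, 092 and 109. Low_force 092 was 2.94-fold above the next library, low_force 038, and the groups overlapped. High_force 018 and 060 and low_force 055 and 072 held 3 counts or fewer, so in these 4 libraries IFS1 cannot be told from a level at the limit of detection. The interval for low_force 055 reached from 0.263 to 7.84 CPM on 2 counts.

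IFS1 averaged 2.14 ± 1.85 CPM in the high_force pods, against 9.17 ± 11.5 CPM in the low_force pods (SD, n = 5 each). Its log2 fold change of -2.14 (SE 0.92) was the largest of the 3 tested genes, at an unadjusted p of 0.0378 in edgeR's quasi-likelihood test. That p ranks 1399th of the 30226 genes and gave an adjusted p of 0.796. The two-sided exact permutation test over the libraries gave p = 0.294 (0.897 adjusted over all genes tested). One soybean carries much of the difference, since without low_force 092 the low_force mean was 4.297 ± 4.14 CPM (SD, n = 4) and the log2 fold change -1.09. In the 7 libraries left without the 3 with high LHY it was -3.14 (SE 0.77), with an adjusted p of 0.406 over all genes in edgeR. That choice takes away the highest high_force library and the 2 lowest low_force libraries for IFS1.

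**Figure D1:**
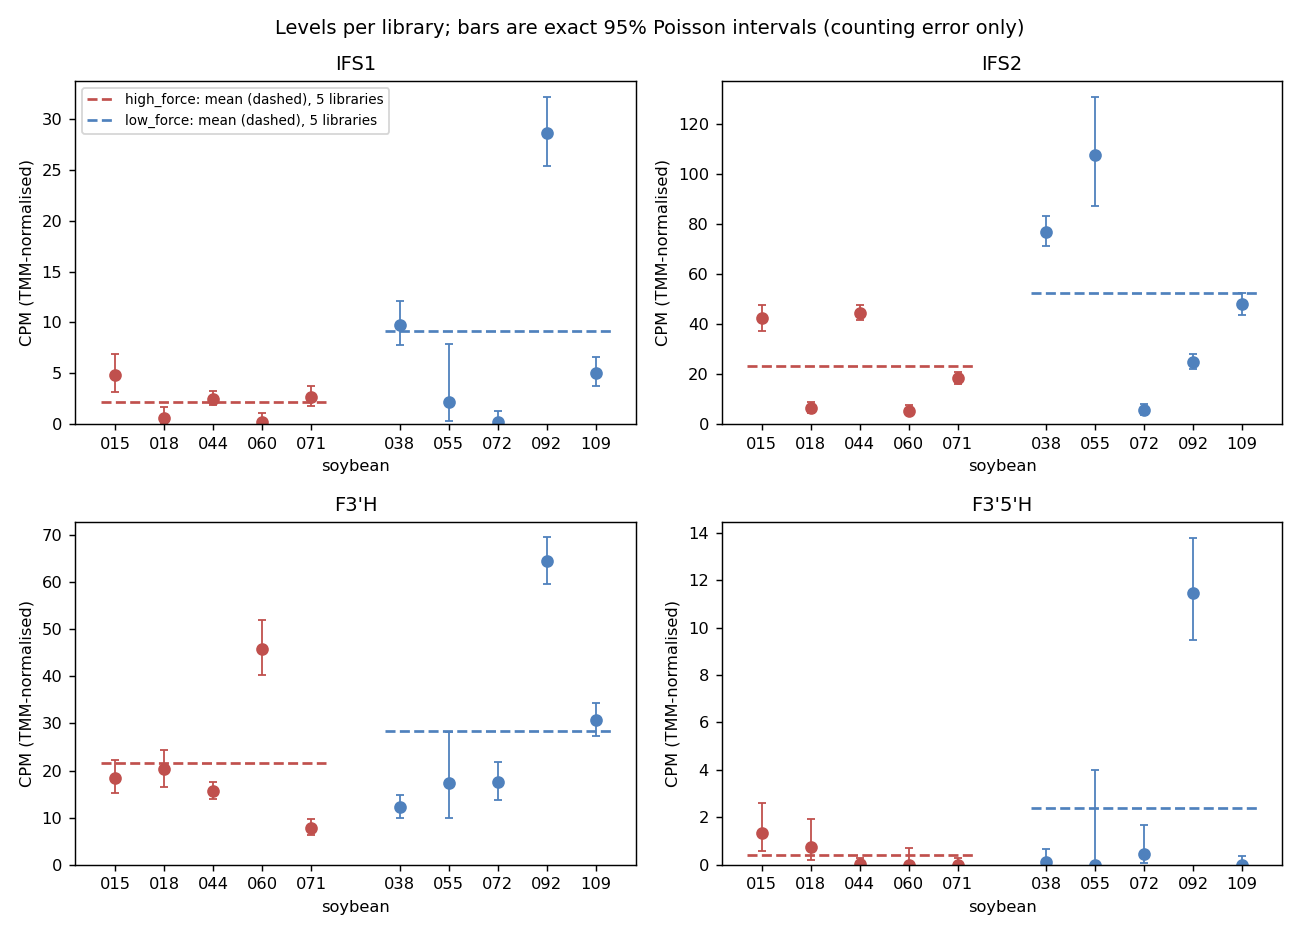
TMM-normalised levels (CPM, linear axes from 0) of the 4 genes in each library, with soybeans on the horizontal axis, high_force at the left in red and low_force at the right in blue. Bars are exact 95% Poisson intervals and dashed lines are group means (n = 5 each). The groups overlap in every panel, and soybean 092 is the highest library for IFS1, F3'H and F3'5'H.

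The division of isoflavone synthase counts between the copies set 1 soybean apart. IFS1 took 10.2%, 8.11%, 5.29%, 3.45% and 12.7% of the IFS1 and IFS2 counts in high_force 015, 018, 044, 060 and 071, against 11.2%, 1.98%, 4% and 9.51% in low_force 038, 055, 072 and 109. In low_force 092 the share was 53.5%, with an exact binomial 95% interval of 49.2% to 57.8%. The interval of no other library reached above 21.9%, the upper bound in high_force 018. The mean share was 7.94 ± 3.70% in high_force (SD, n = 5) and 16.1 ± 21.3% in low_force (SD, n = 5), and without low_force 092 the low_force mean was 6.68 ± 4.40% (SD, n = 4). Low_force 092 combined the highest IFS1 level with an IFS2 level inside the range of the other libraries. The sources used here do not give how reads matching both copies were counted, and its part in these shares was not tested.

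F3'H, which adds the single 3' hydroxyl that separates quercetin and cyanidin types from kaempferol and pelargonidin types, varied least of the 3 tested P450 genes. It stood at 18.5, 20.2, 15.7, 45.8 and 7.90 CPM in high_force 015, 018, 044, 060 and 071, against 12.2, 17.4, 17.5, 64.5 and 30.6 CPM in low_force 038, 055, 072, 092 and 109. High_force 060 and low_force 092 were the highest libraries of their groups, and the 2 groups covered almost the same range. F3'H averaged 21.6 ± 14.3 CPM in the high_force pods, against 28.4 ± 21.3 CPM in the low_force pods (SD, n = 5 each). The log2 fold change was -0.42 (SE 0.51, adjusted p = 0.904 in edgeR's quasi-likelihood test) and the two-sided exact permutation p was 0.563 (0.958 adjusted over all genes tested). Its sign turned without low_force 092, to 0.13 (SE 0.45), and with library size as the only scaling it was -0.01.

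F3'5'H, whose product has 3 hydroxyl groups on the B-ring and is the precursor of the purple delphinidin type, was near the limit of detection outside 1 soybean. It had 8, 4, 1, 0 and 0 counts in high_force 015, 018, 044, 060 and 071, against 1, 0, 2, 115 and 0 counts in low_force 038, 055, 072, 092 and 109. Low_force 092 thus held 87.8% of the 131 counts, at 11.5 CPM with an exact 95% Poisson interval of 9.48 to 13.8 CPM. The next library, high_force 015, was at 1.32 CPM with an interval of 0.570 to 2.60 CPM. In low_force 055 the limit of 3.26 CPM lies below the level of low_force 092. The mean was 0.424 ± 0.593 CPM in the high_force pods, against 2.41 ± 5.07 CPM in the low_force pods (SD, n = 5 each), the low_force SD being larger than its mean. Low counts kept F3'5'H out of the main test. With no filter, over 46734 genes, its log2 fold change was -2.76 (SE 1.47, adjusted p = 0.681 in edgeR's quasi-likelihood test), and without low_force 092 it was 1.33 (SE 1.501). Among the 29754 genes of the table with at least as many counts in all, 26 (0.0874%) had as large a share of their summed CPM in low_force 092 as the 80.98% of F3'5'H. This library is the one where F3'5'H was highest, and genes concentrated in another library were not counted. The percentage is therefore a description and no measure of chance. The gene IDs next to F3'5'H on either side, Glyma.13G072000 and Glyma.13G072200, had at most 7 and 3 counts in any library. Of the 3 IDs on either side, Glyma.13G071800, Glyma.13G072200 and Glyma.13G072300 had their highest counts in low_force 092 as well, at 724, 3 and 191. These counts are not scaled for depth, and Glyma.13G072200 was at the limit of 3 counts and was not tested. Among all tested genes, 23.6% had their highest level in low_force 092, by log2 CPM and so not by the same measure.

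Counts of the 4 genes were divided differently between the branches in different soybeans. The isoflavone synthases together took 70.4%, 24.8%, 74.9%, 10.6% and 72.6% of the counts of the 4 genes in high_force 015, 018, 044, 060 and 071. They took 87.6%, 86.3%, 24.3%, 41.3% and 63.4% in low_force 038, 055, 072, 092 and 109. In all, 6 libraries, 3 of each group, had more isoflavone synthase than hydroxylase counts, and 4 libraries, 2 of each group, had fewer. The exact binomial 95% interval lay on 1 side of 50% in each of the 10 libraries. The nearest were low_force 092, at 38.6% to 44.1%, and low_force 109, at 59.99% to 66.7%. These shares are of counts and are not corrected for gene length, so they compare libraries with each other but do not say which transcript is the more abundant per length.

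As a log2 ratio of isoflavone synthase over hydroxylase counts, the balance averaged -0.08 ± 2.11 in the high_force pods, against 0.82 ± 1.93 in the low_force pods (SD, n = 5 each). The difference of -0.90 is smaller than the SD within either group. No test was made of this score, which is a combination of genes put together with earlier results known. The single genes were tested with all other genes and adjusted over all of them. The ratio is taken within a library and does not depend on the scaling between libraries. It ran from -3.05 in high_force 060 to 2.81 in low_force 038. Without high_force 060 the difference between the groups was -0.16, and without low_force 072 it was -1.51, so it moved by more than 1.5 times with either library.

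**Figure D2:**
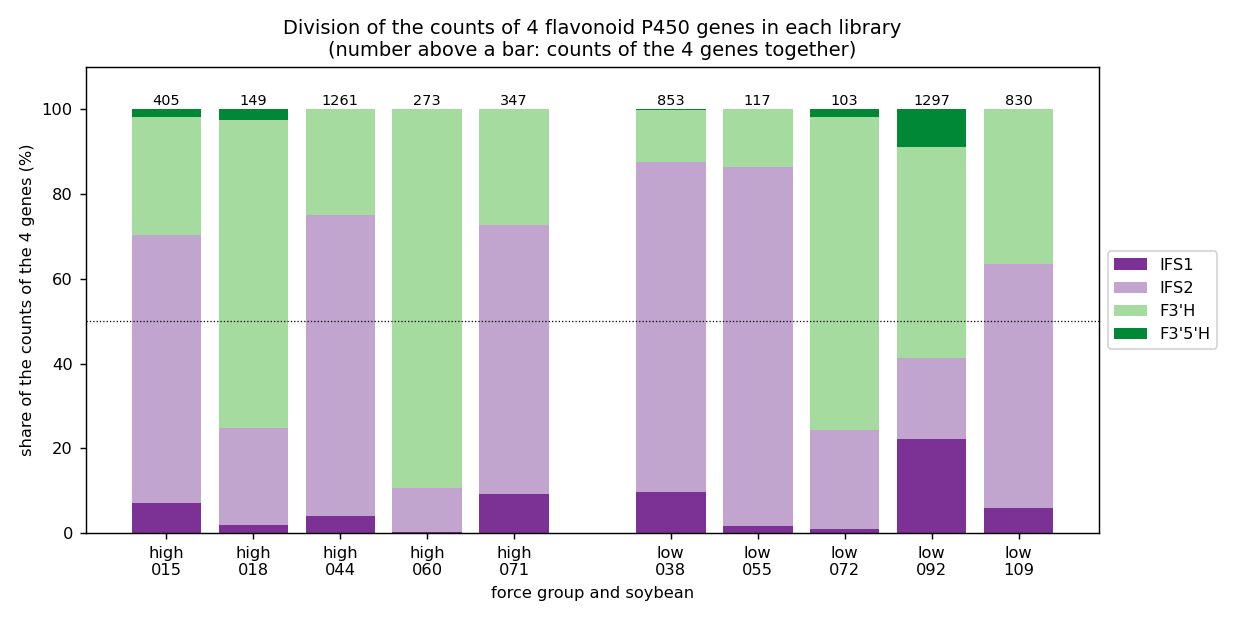
Share (%) of the summed counts of IFS1, IFS2, F3'H and F3'5'H taken by each gene in each library, high_force at the left and low_force at the right, with the number of counts of the 4 genes above each bar. The dotted line marks 50%. High_force 018 and 060 and low_force 072 and 092 have isoflavone synthase shares (purple) under the line, and low_force 092 has the largest IFS1 and F3'5'H shares.

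The 4 libraries with an isoflavone synthase share under 50% did not have the same levels. In high_force 018 and low_force 072 IFS2 was low while F3'H was at 20.2 and 17.5 CPM, near the median of the 10 libraries. In high_force 060 low IFS2 came with the second highest F3'H level. In low_force 092 IFS2 was at 24.8 CPM, IFS1 was the highest of all libraries, and F3'H and F3'5'H were the highest as well. The summed level of the 4 genes was 47.5 ± 18.4 CPM in the high_force pods, against 92.5 ± 43.04 CPM in the low_force pods (SD, n = 5 each), with ranges of 27.9 to 66.8 and 23.7 to 129.4 CPM that overlapped. The highest sums were 129.4 CPM in low_force 092 and 126.95 CPM in low_force 055. The sum in low_force 055 rests on 117 counts and on its small TMM-scaled size. Without low_force 092 the low_force mean was 83.3 ± 43.6 CPM (SD, n = 4).

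Over the 10 libraries the copies of isoflavone synthase varied more like each other than like F3'H. On the log2 CPM scale Pearson's r between IFS1 and IFS2 was 0.69 (Spearman's rho 0.58), and 0.82 without the 2 libraries farthest from the median of IFS1. Between IFS1 and F3'H r was 0.14 (rho -0.02), and -0.11 without 2 libraries. Between IFS2 and F3'H r was -0.24 (rho -0.36), and -0.08 without 2 libraries. These values describe 10 libraries that share their depth and their normalisation between genes, and IFS1 and IFS2 can share reads.

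**Figure D3:**
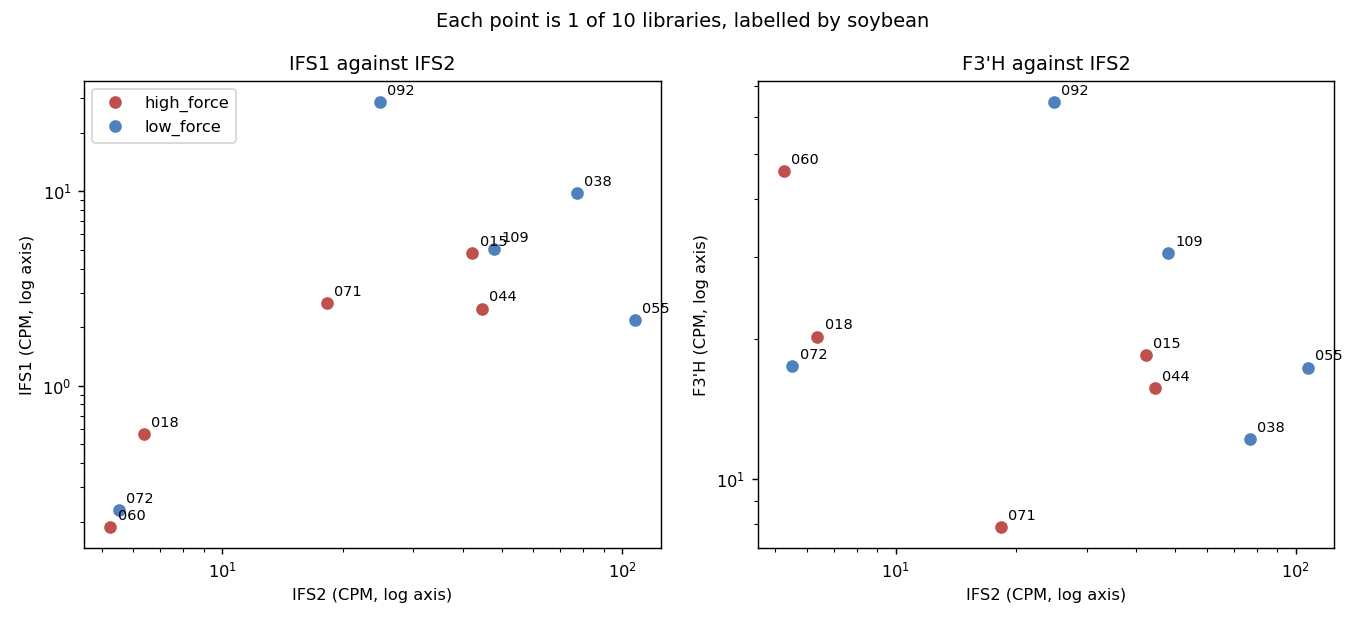
Level of IFS1 (left) and of F3'H (right) against that of IFS2 in CPM, on log axes, with 1 point per library, red for high_force and blue for low_force, labelled by soybean. Soybeans 018, 060 and 072 lie at the low end of both isoflavone synthases, 092 lies above the others for IFS1, and no such order is seen for F3'H, where r was -0.24.

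The spread between soybeans was larger for the isoflavone synthases than for most genes. The biological coefficient of variation within groups was 98.8% for IFS1, above that of 97.7% of the tested genes, and 77.6% for IFS2, above 93.8% of them. For F3'H it was 57.2%, above 81.8% of the tested genes, whose median was 40.3%. The comparison is with tested genes of every level and was not matched for abundance. From the lowest to the highest library the level differed 152.5-fold for IFS1, 20.4-fold for IFS2 and 8.16-fold for F3'H, the value for IFS1 resting on 1 count in its lowest library.

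The genes whose log2 CPM followed each P450 gene most closely over the 10 libraries are given by ID, since no source used here names them. For IFS1 they were Glyma.04G229600 (r = 0.96), Glyma.19G130200 (r = 0.94) and Glyma.18G285800 (r = 0.94), and without low_force 092 and high_force 060, the libraries farthest from the IFS1 median, r was 0.91, 0.88 and 0.91. For IFS2 they were Glyma.15G067100 (r = 0.95), Glyma.13G118500 (r = 0.93) and Glyma.12G156600 (r = 0.93), with r of 0.91, 0.87 and 0.88 without high_force 060 and low_force 072. For F3'H they were Glyma.06G192600 (r = 0.97), Glyma.04G042200 (r = 0.95) and Glyma.18G244500 (r = 0.92), with r of 0.94, 0.86 and 0.84 without low_force 092 and high_force 060. These genes are the highest of 30226 by this measure, so a high r was bound to be found. None of the 9 genes is shared between the lists, and none passed the test between the groups.

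Leaving out soybeans one at a time shows how far each difference between the groups rests on a single library. IFS1 and IFS2 kept negative log2 fold changes in all 10 of these fits, between -2.58 and -1.09 for IFS1 and between -1.52 and -0.73 for IFS2. F3'H and F3'5'H turned sign without low_force 092, and their other values lay below 0. No fit brought any of the 4 genes past the adjusted threshold.

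**Figure D4:**
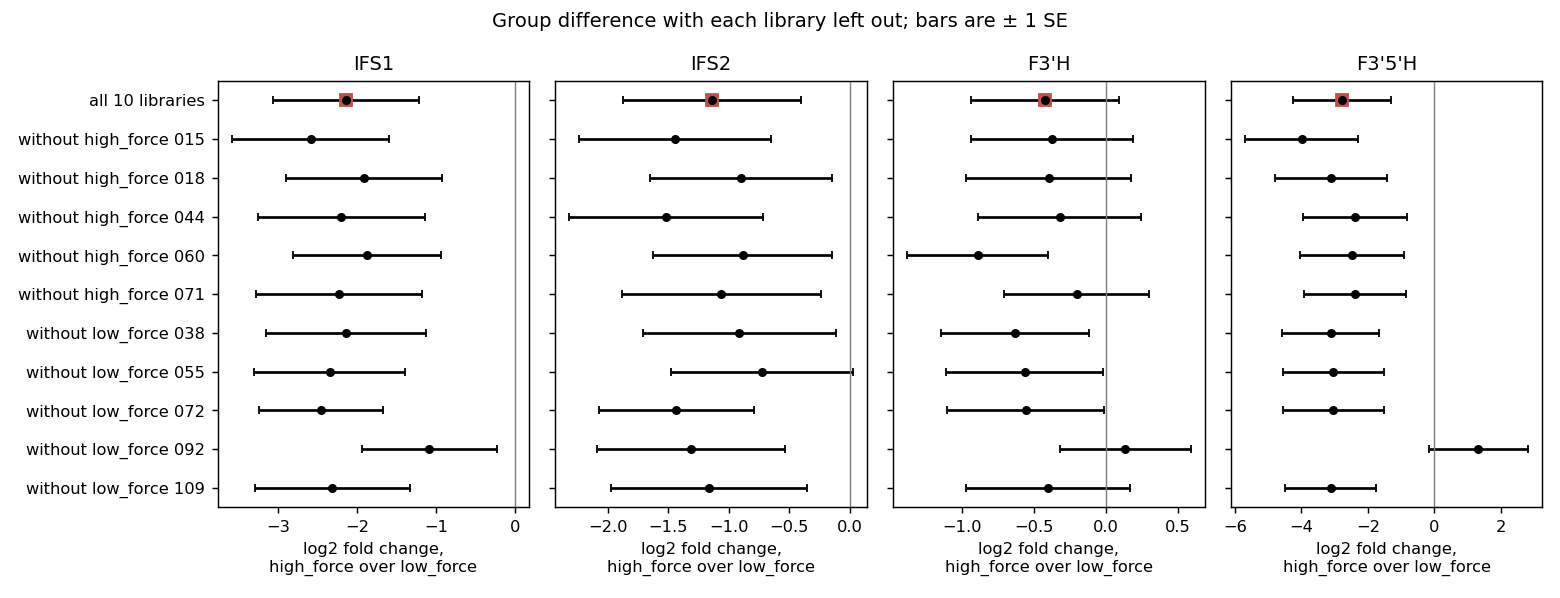
Log2 fold change of high_force over low_force (horizontal axis) for each gene in edgeR's quasi-likelihood fit, with all 10 libraries (red square, top row) and with each library left out (rows below). Bars are ± 1 SE, and F3'5'H is from the fit with no filter. Without low_force 092 the value is -1.09 for IFS1, 0.13 for F3'H and 1.33 for F3'5'H.

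The other genes of the pathway gave a background for these 4. A list of 32 further gene IDs, paired with phenylpropanoid and flavonoid steps from published soybean work as recalled and not from the files, held 21 tested IDs, of which edgeR's quasi-likelihood test called 0 higher and 0 lower over all genes. Of these, 3 were lower in high_force at an unadjusted p under 0.05, where 3.79% of all tested genes were, and 2 had groups that did not overlap, with high_force below low_force in both (among all tested genes 0.387% had such groups, and 0.599% had high_force above low_force). The median log2 fold change of the list was -0.32, against -0.01 for all tested genes, and 18 of the 21 values lay below 0, as did 51.3% of all tested genes. Scaled by library size only, which moved the median of all genes by 0.55 to 0.54, the list had 10 of 21 values below 0 and a median of 0.22. The median of the list lay below that of all genes under both scalings. For the 10 tested IDs recalled as phenylalanine ammonia-lyase and cinnamate 4-hydroxylase, the general phenylpropanoid steps, the values ran from -0.32 to 0.03. For the 10 recalled as steps from chalcone synthase onward, including chalcone isomerase, flavone synthase, flavanone 3-hydroxylase and flavonol synthase, they ran from -1.85 to -0.54. In the two-sided exact permutation test the p of these 10 ran from 0.00794 to 0.889 (0.797 to 0.994 adjusted over all genes tested). The smallest log2 fold change of the list belonged to Glyma.01G228700 (-1.85, SE 0.33, adjusted p = 0.796 in edgeR's quasi-likelihood test). The largest belonged to Glyma.05G032200 (0.20, SE 0.29, adjusted p = 0.921 in the same test). IFS1 at -2.14 lay below this whole range and IFS2 at -1.14 inside it.

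The late steps, which use what the hydroxylases make, were abundant in 2 soybeans. The 5 IDs recalled as dihydroflavonol reductase, anthocyanidin synthase and anthocyanidin reductase, the enzymes that lead to anthocyanidins and proanthocyanidins, did not have enough counts in enough libraries to be tested. Together they stood at 11.2, 4.87, 1.74, 2.63 and 1.41 CPM in high_force 015, 018, 044, 060 and 071, against 1.63, 1.09, 4.14, 60.2 and 102.2 CPM in low_force 038, 055, 072, 092 and 109. Low_force 092 and 109 thus stood above all other libraries, on 603 and 1014 counts. Low_force 109, the library with abundant seed reserve genes, had 0 F3'5'H counts, which allows up to 0.302 CPM, and 30.6 CPM of F3'H. Low_force 092 had the most of both hydroxylases, with seed reserve genes at 63.5 CPM. In high_force 060 the seed reserve genes were higher, at 140.8 CPM, while the late-step IDs stood at 2.63 CPM. The part of seed RNA in these values was not tested.

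Low_force 092 was the highest library for 8 of the 21 tested IDs of the list (38.1%), and for 6 of the 10 from chalcone synthase onward. It was the highest library for 23.6% of all tested genes. IFS1, F3'H and F3'5'H also had their highest level there.

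**Figure D5:**
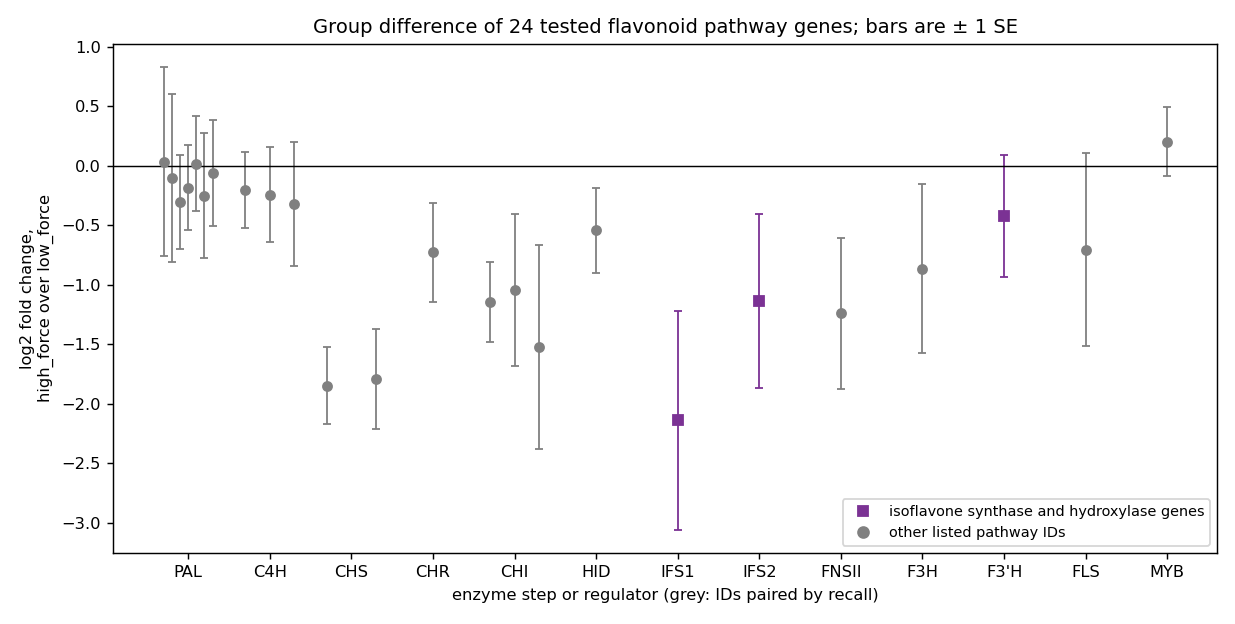
Log2 fold change of high_force over low_force (vertical axis) for the 24 tested genes, ordered along the pathway, with isoflavone synthase and hydroxylase genes as purple squares and the other listed IDs as grey circles; bars are ± 1 SE. Values of the general phenylpropanoid steps (PAL, C4H) lie near 0 and those from chalcone synthase (CHS) to flavonol synthase (FLS) lie below it under TMM scaling, with 0 of the 24 called by edgeR's quasi-likelihood test and 1, Glyma.01G228700, called by DESeq2 and by the edgeR exact test.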

How the data were processed

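The deposited table holds unnormalised whole-number counts for each gene in 10 libraries, made by the authors. The submitters' processing notes list Subread 1.6.2, featureCounts, TopHat2, Trim Galore 0.4.4 and edgeR without their settings. The sources used here do not give whether strand was used or how reads matching more than 1 gene were counted. Gene IDs end in Wm82.a2.v1.

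Columns were matched to samples by the sample ID in the labels. Counts were filtered with filterByExpr (30226 genes), scaled with TMM and compared between groups by edgeR 4.0.16 (R 4.3.3) with its quasi-likelihood test. The log2 fold change is high_force over low_force, its standard error (SE) is its size divided by the square root of F, and adjusted p is Benjamini-Hochberg over all tested genes, two-sided, at 0.05. Log2 CPM used a prior count of 2. Exact permutation tests used all assignments of 10 libraries to groups of 5 (smallest possible p 0.00794). The log2 balance used 0.5 counts as pseudocount.

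Alternatives were scaling by upper quartile, by relative log expression or by library size only, other filters, limma-voom (limma 3.58.1), the edgeR exact test, DESeq2 1.42.0, a robust fit, and leaving out libraries. Every pair of libraries differed by more than sampling noise (chi-square per degree of freedom at least 8.13). The 4 genes, the lists and the 3 libraries left out for high LHY were chosen with earlier results of these data known. The genes named are the 4 P450 genes, the 3 tested genes with the highest Pearson's r with each of them, and the pathway IDs with the smallest and largest log2 fold change. The IDs next to F3'5'H were added after its values were seen. Gene names come from published work as recalled, since the RefSeq table pairs none of these IDs. Gene lengths were not used here.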

Additional observations from a re-analysis of the deposited data

Results flagged for a closer look

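Among 12 sets of 5 values, 2 held a library set far apart from its group. For independent, normally distributed sets about 1 in 20 does so by chance. The sets here share counts, and the F3'5'H values are near the limit of detection outside 1 soybean, so that rate need not hold. Both concern soybean 092 of low_force. Its F3'5'H level of 3.55 on the log2 CPM scale stood apart from the other 4 low_force libraries, which had 0 to 2 counts. Its IFS1 share of 53.5% of isoflavone synthase counts stood apart from the 1.98% to 11.2% of the other low_force libraries.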

How the results depend on the processing

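No paired analysis was possible because the groups share no soybean number. The log2 fold changes of IFS1 and IFS2 stayed below 0 under all scalings, filters, tools and left-out libraries tried, from -3.14 to -1.09 for IFS1 and from -1.52 to -0.34 for IFS2, and none passed the adjusted threshold (lowest adjusted p 0.406 for IFS1 and 0.484 for IFS2, both without the 3 libraries with high LHY). Leaving out 1 library gave -2.58 to -1.09 for IFS1, -1.52 to -0.73 for IFS2, -0.89 to 0.13 for F3'H and -3.99 to 1.33 for F3'5'H. It gave -1.51 to -0.16 for the log2 balance and -11.6 to 1.26 percentage points for the IFS1 share. The values of 0.13, 1.33 and 1.26 are those without low_force 092. The number of genes called over all genes was 0 to 1 with 1 library left out, 2 without the 3 libraries with high LHY, 62 with library size only, 25 in DESeq2 and 3 in the edgeR exact test, and the cause was not tested. Of the pathway list DESeq2 and the exact test each called 1 gene, Glyma.01G228700. With library size only, the median of all genes moved by 0.55 to 0.54, and the median of the pathway list became 0.22, with 10 of 21 values below 0. IFS2 had -0.34 and F3'H -0.01 under that scaling. The median of the list ran from -0.81 to -0.23 with 1 library left out. Depth limits IFS1 in 4 libraries and F3'5'H in all but 3, with 3 counts or fewer each. F3'5'H gave no value where at least 1 CPM in 5 libraries was asked for, and DESeq2 gave it no p.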
